A study of Homo sapiens with 7 samples.

Results

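The 46 genes described here encode proteins that take a cell from G2 into mitosis and through cell division. They were chosen by symbol, as the rows of the deposited table that carry the names of known mitotic cyclins, kinases, checkpoint, centromere, kinetochore, spindle and cytokinesis genes. All 46 had a row among the 20072 symbols of the table, and all 46 were among the 14305 genes tested, which had a mean of at least 1 RPKM, the reads on a gene scaled by its exon length and by the reads of the library, in at least 1 parameter. The measurements came from HCT116, an established human colorectal carcinoma cell line with a near-diploid karyotype. The cells carried no transgene or knockdown and were in log phase in a serum-free McCoy's medium with epidermal growth factor, insulin and transferrin. They were not synchronised, so each library mixes all phases of the cell cycle. The paper describes such cells as divided into 3 parts, 1 for each assay. The transcription rate (TR, 2 libraries) was read by GRO-seq, in which nuclei are allowed to run on and newly elongated RNA is labelled. The mRNA abundance (RA, 3 libraries) was read by RNA-seq of isolated mRNA. The translation activity (TA, 2 libraries) was read by sequencing mRNA from polysome fractions, and only for this assay were cells exposed to cycloheximide, which holds ribosomes on mRNA.

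Mitotic entry depends on cyclin B bound to CDK1, which WEE1 and MYT1 hold inactive and CDC25 phosphatases activate. Polo and Aurora kinases then build the spindle, the checkpoint proteins hold the cell until kinetochores are attached, and CDC20 directs the anaphase-promoting complex (APC/C) to destroy securin and cyclin B. Transcription of these genes peaks in G2 and M. Their promoters are known for a cell cycle genes homology region (CHR), to which the repressive DREAM complex and the activators MYBL2 and FOXM1 are recruited, and for CCAAT boxes bound by NF-Y.

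The promoter sequences are shown as background on these genes. Whether they bear on the differences between libraries described below was not tested. RefSeq promoters, on GRCh38.p14 and spanning 250 bases before to 50 bases after the start, were matched by symbol for 39 of the 46 genes, with 49 promoters in all. AURKA, TPX2, BIRC5, UBE2C, FOXM1, BUB3 and TTK had no entry. The CHR was searched as TTTGAA or TTTAAA, and the NF-Y box as CCAAT, both on either strand. In the lines below the matched letters are in capitals, and the distances in the next paragraph are counted from the start site to the first base of the match.
CCNB1, CHR, chr5:69167108-69167137, plus strand: agcagtgcggggTTTAAAtctgaggctagg
CCNB1, CCAAT box, chr5:69167083-69167112, plus strand: gccacgaacaggCCAATaaggagggagcag
CCNB2, CHR, chr15:59105105-59105134, plus strand: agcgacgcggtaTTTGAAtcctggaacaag
PLK1, CHR, chr16:23678848-23678877, plus strand: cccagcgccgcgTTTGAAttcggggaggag
MKI67, CHR, chr10:128126435-128126464, minus strand: tcttcgttttcgTTTGAAttgggcgggcgc
BUB1B, CHR, chr15:40161034-40161063, plus strand: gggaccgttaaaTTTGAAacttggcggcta
KIF20A, CHR, chr5:138179059-138179088, plus strand: cgcagcgcgtaaTTTAAAatattgtatctg
CDC20, CHR, chr1:43358904-43358933, plus strand: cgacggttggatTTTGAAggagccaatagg
CKS1B, CHR, chr1:154974639-154974668, plus strand: gcgggcggcgtgTTTGAAagcgaggccaaa

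The match began at -30 in CCNB1 and CKS1B, at -29 in CCNB2, PLK1 and MKI67, at -23 in BUB1B, at -41 in KIF20A and at -65 in CDC20. A CHR match was in 81.6% of the 49 mitotic promoters, from 36 of the 39 genes, against 17.2% of the promoters of expressed genes and 23.99% of all promoters in the table. Between 50 bases before and 20 bases after the start it was in 55.1% of the mitotic promoters, from 27 genes, against 4.20% and 6.22%. CCAAT was in 77.6% of the mitotic promoters, from 33 genes, against 34.2% of the expressed and 34.6% of all promoters. At 2 or more places CCAAT was in 51.02%, 11.6% and 10.8% in the same order. Both the CHR and CCAAT were in 65.3% of the mitotic promoters, 6.67% of the expressed ones and 9.27% of all. The promoters of such genes are already known for these elements. The shares are therefore a description of the list and not a measurement on these cells.

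The RPKM values were scaled to 3391897 and 5629982 reads for TR, 20299018 to 22532134 for RA and 22421062 to 30805391 for TA, as recovered from them. Of these totals, 99.74% to 99.80% lay on the listed genes. They are therefore reads counted on genes, and the full number of reads in each library is not known. Among the 46 genes the fewest reads were 70, for SPC25 in TR replicate 1, and the most were 18091, for MKI67 in RA replicate 1. Counting error is thus largest for the weakest genes in TR. The epithelial markers of a colorectal line were present in every library, as with EPCAM, which had 181, 223 and 226 RPKM in RA. Of the markers of other cell types, the leukocyte gene PTPRC, the endothelial gene PECAM1 and the hepatocyte gene ALB were below 1 RPKM in every library, the astrocyte gene GFAP had 4.31 and 3.96 RPKM in TR but at most 0.048 RPKM in RA, and the fibroblast collagen gene COL1A1 had 10.1 to 13.8 RPKM in RA. The study calls its replicates biological, but whether they came from separate cultures is not stated in the labels, so p-values measure the spread between these libraries, which may be partly technical.

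The mitotic genes were among the well expressed genes of these cells in each parameter. Their median was 33.8 RPKM in TR, 30.3 in RA and 27.6 in TA, against 14.2, 8.94 and 6.34 RPKM over the genes tested. Of the 46, 40 lay above the median of the genes tested in TR, 43 in RA and 44 in TA. UBE2C, which encodes the ubiquitin-conjugating enzyme of the APC/C, was highest in TR at 150 RPKM and in RA at 148 RPKM, and CDC20 was highest in TA at 158 RPKM. The lowest were HMMR, a spindle pole gene, in TR at 8.28 RPKM, the kinetochore motor gene CENPE in RA at 6.22 RPKM, and the spindle pole gene ASPM in TA at 2.19 RPKM.

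**Figure D1:**
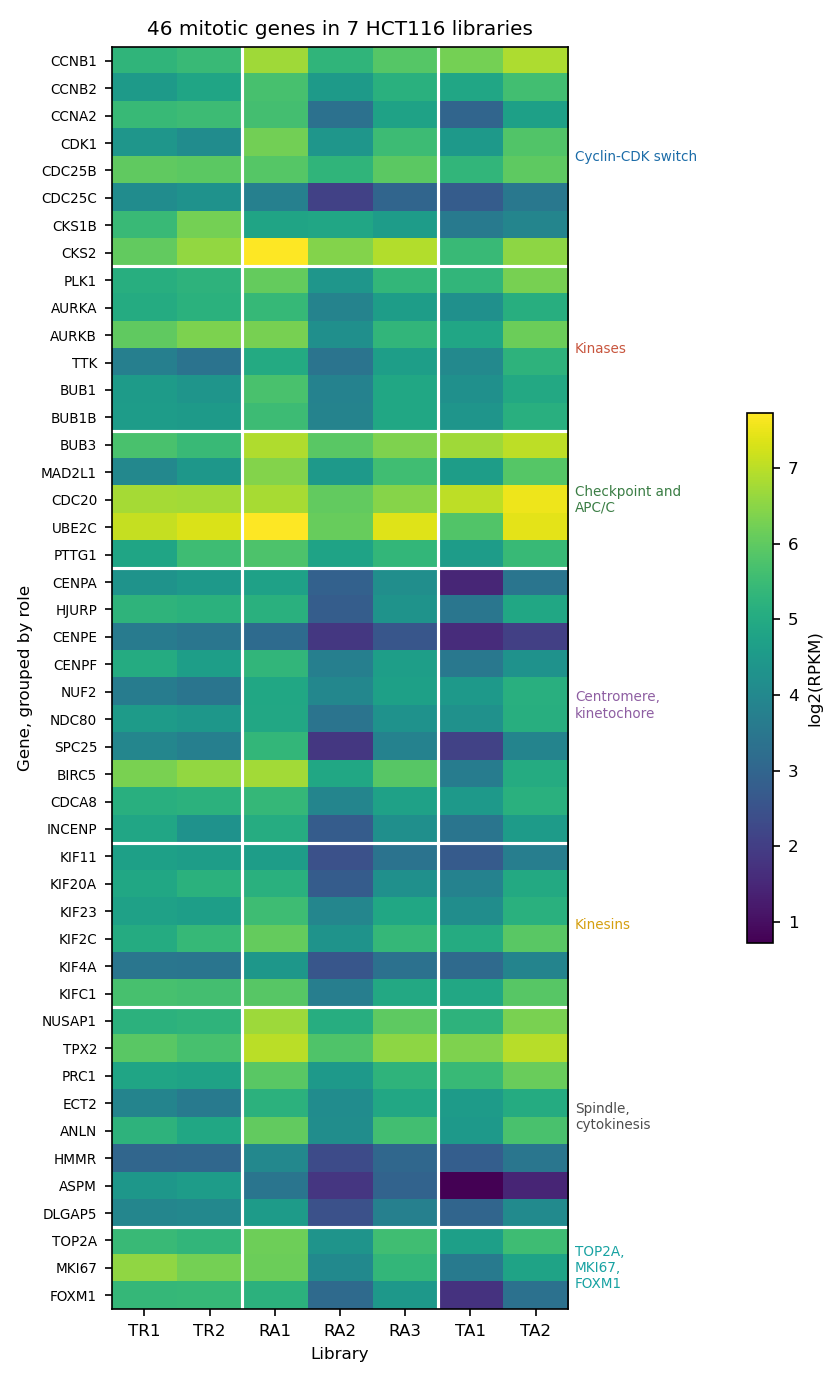
log2(RPKM) of the 46 mitotic genes (rows, grouped by role) in the 7 libraries (columns), with TR, RA and TA apart. RA1 is brighter than RA2 in 45 of the 46 rows and TA2 brighter than TA1 in 46 of 46, while the TR columns differ little.

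The levels of the mitotic genes depended on the library within RA and within TA, and did so together. Their median was 48.1 RPKM in RA replicate 1, 15.4 in RA replicate 2 and 29.7 in RA replicate 3, while the median of the genes tested was 8.94, 8.62 and 8.94 RPKM. In TA it was 19.9 RPKM in replicate 1 and 35.2 in replicate 2, beside 6.05 and 6.37 RPKM for the genes tested. In TR the replicates had 31.1 and 33.2 RPKM, beside 14.1 and 14.2. As a share of the summed RPKM of a library, the 46 genes took 0.734%, 0.247% and 0.478% in RA, 0.310% and 0.549% in TA, and 0.515% and 0.526% in TR. RA replicate 1 was thus high, RA replicate 2 low and RA replicate 3 between them. In bulk libraries, fewer cells in G2 and M and less mitotic mRNA per cell cannot be told apart. Genes of the G1/S transition and DNA replication, described below, were also higher in RA replicate 1 than in RA replicate 2.

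Gene by gene, RA replicate 1 exceeded replicate 3 and replicate 3 exceeded replicate 2 in 44 of the 46, an order that 26.1% of the genes tested had. Taken pair by pair, replicate 1 exceeded replicate 2 in 45 of the 46, against 50.3% of the genes tested, replicate 1 exceeded replicate 3 in 45, against 52.4%, and replicate 3 exceeded replicate 2 in 45, against 48.8%. The exceptions were CKS1B, with 28.3, 29.2 and 24.3 RPKM in RA replicates 1, 2 and 3, and CDC25B, with 58.8, 39.2 and 62.4 RPKM. RA replicate 1 was at least 2-fold above replicate 2 in 40 of the 46, against 9.55% of the genes tested, with a median of 3.13-fold over the 46. RA replicate 3 was at least 2-fold above replicate 2 in 22 of the 46, against 4.58%, with a median of 1.94-fold. Between RA replicates 1 and 3 the median was 1.62-fold, and 3 of the 46 reached 2-fold, against 5.96%. TA replicate 2 exceeded replicate 1 in 46 of the 46, against 49.3% of the genes tested, with a median of 1.86-fold, and 19 of the 46 reached 2-fold, against 6.66%. In TR, 22 genes were higher in replicate 2, against 54.7% of the genes tested, and 24 in replicate 1, against 45.2%, the median ratio was 0.98-fold, and none differed 2-fold, where 1.38% of the genes tested were at least 2-fold higher in replicate 2 and 1.22% in replicate 1. With single libraries on each side these ratios have no test.

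**Figure D2:**
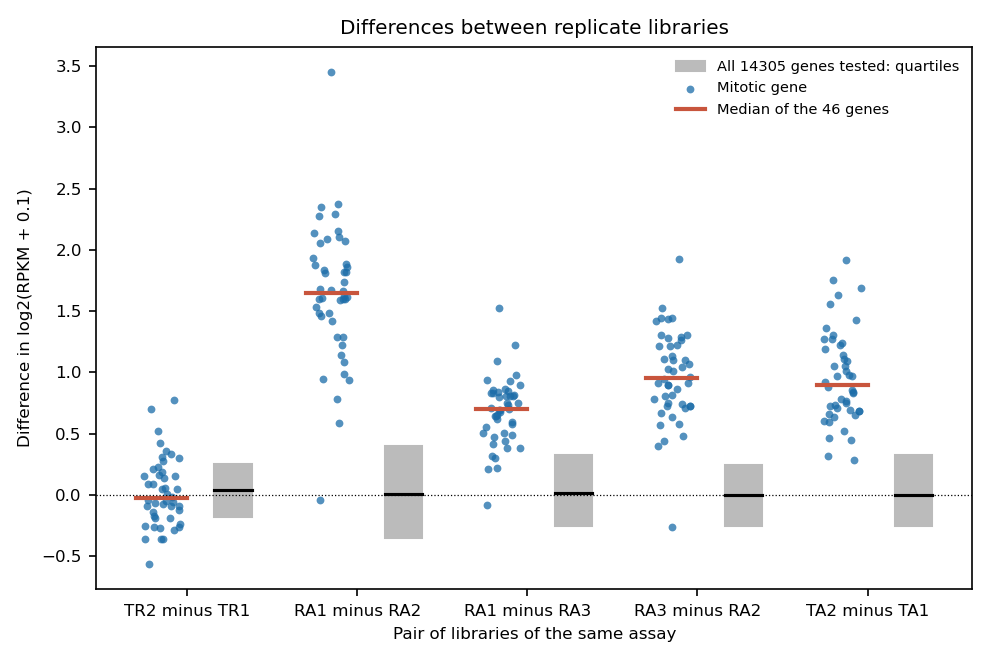
Difference in log2(RPKM + 0.1) between libraries of the same assay, with a point for each of the 46 mitotic genes, a red line at their median, and a grey bar from the lower to the upper quartile of the 14305 genes tested with a black line at their median. The mitotic genes centre near 0 in TR, at 1.65 for RA1 minus RA2 and at 0.90 for TA2 minus TA1.

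The spread over replicates was correspondingly wide. The pooled replicate SD of log2(RPKM + 0.1) over the 46 genes was 0.20 in TR, 0.88 in RA and 0.73 in TA, against 0.33, 0.41 and 0.36 over the genes tested. After the median of the 46 genes was subtracted in each library, it was 0.20, 0.29 and 0.29. Most of the replicate spread of a mitotic gene in RA and TA was therefore shared with the other mitotic genes. No sequencing batch could be examined, because the libraries of a lane are not named, and the part of culture density, cell cycle distribution or library preparation in the shared difference was not tested.

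The cyclins and their kinase followed the group. CCNB1, the B-type cyclin of mitotic entry, had 39.2 and 44.6 RPKM in TR, 105, 39.5 and 59.1 in RA, and 76.2 and 116 in TA. CDK1, its catalytic partner, had 21.1 and 17.5 RPKM in TR, 74.7, 21.0 and 46.2 in RA, and 22.9 and 56.8 in TA. CCNA2, the cyclin of S phase and G2, had 43.7 and 46.4 RPKM in TR, 49.4, 10.1 and 27.2 in RA, and 8.07 and 26.2 in TA. For all 3 genes the RA replicates fell in the same order, and CCNA2 had the widest ratios, 4.89-fold between RA replicates 1 and 2 and 3.25-fold between TA replicates 2 and 1. CCNB2, another B-type cyclin, had the narrowest RA ratio of the 4, 2.21-fold, with 51.5, 23.3 and 36.2 RPKM in RA. Between TA replicates 2 and 1 CCNB2 had 1.67-fold and CCNB1 1.52-fold. CKS1B and CKS2 encode small CDK-binding proteins of similar sequence, yet their mRNAs behaved differently: CKS2 had 212, 86.5 and 121 RPKM in RA, whereas CKS1B was within 24.3 to 29.2 RPKM. In TR, CKS2 had 66.5 and 95.7 RPKM, and CKS1B had 44.7 and 76.3, from 140 and 397 reads. The 1.71-fold ratio of CKS1B was the widest of the 46 between the TR libraries. The CKS1B promoter holds the CHR printed above and CCAAT at 5 places. The CKS2 promoter also holds a CHR match, at -29, and CCAAT at -148, -70 and -52.

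Among the kinases, PLK1 had 34.4 and 37.9 RPKM in TR, 67.8, 21.1 and 40.7 in RA, and 40.1 and 78.8 in TA. AURKA, the spindle pole Aurora kinase, had 42.4, 14.6 and 24.4 RPKM in RA, and AURKB, the catalytic subunit of the chromosomal passenger complex, had 78.9, 18.6 and 40.03. The ratio of RA replicate 1 to replicate 2 was 3.21-fold for PLK1, 2.91-fold for AURKA and 4.23-fold for AURKB. It was at least 2-fold in all 6 kinases, the other 3 being the checkpoint kinases TTK, BUB1 and BUB1B.

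The 10 centromere and kinetochore genes held both the widest and some of the narrower ratios. SPC25, a subunit of the NDC80 complex that binds microtubules, had 40.8, 3.63 and 14.1 RPKM in RA and 4.27 and 14.6 in TA, beside 15.3 and 13.5 in TR. Its ratio of RA replicate 1 to 2, 11.3-fold, was the highest of the 46. NUF2, from the same complex, had 30.02, 15.6 and 25.9 RPKM in RA, a 1.92-fold ratio. The subunits of 1 complex thus differed by several fold in how far the RA libraries were apart. CENPA, the centromeric histone, had 2.79 and 10.9 RPKM in TA, and its 3.89-fold ratio was the highest between the TA libraries.

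Of the 5 checkpoint and APC/C genes, 2 reached 2-fold between RA replicates 1 and 2, MAD2L1 at 3.84-fold and UBE2C at 3.01-fold. BUB3, CDC20 and PTTG1, which encodes securin, had 1.92-, 1.72- and 1.98-fold. All 6 kinesin genes with a KIF name were above 3-fold, from KIF23 at 3.08-fold to KIF20A at 5.25-fold, both motors of the central spindle. The kinesin CENPE, grouped here with the kinetochore genes, had 2.48-fold. The 8 spindle and cytokinesis genes ran from 2.12-fold for ECT2, the activator of RhoA at the cleavage furrow, to 4.32-fold for DLGAP5, a microtubule-binding spindle gene. FOXM1, which encodes the transcription factor, had 37.02, 8.82 and 21.99 RPKM in RA, MKI67, the Ki-67 proliferation marker, had 71.3, 16.5 and 40.8, and TOP2A, the DNA topoisomerase of chromosome segregation, had 72.2, 20.5 and 47.8. In TR the same 3 genes had 41.7 and 43.0, 94.1 and 77.1, and 44.3 and 40.2 RPKM, so that the TR replicates lay closer together than the RA replicates.

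The genes with the wider difference between RA libraries also had the wider difference between TA libraries. Across the 46 genes, RA replicate 1 minus replicate 2 and TA replicate 2 minus replicate 1, on the log2(RPKM + 0.1) scale, had a Pearson r of 0.71 and a Spearman rho of 0.75. Over the 14305 genes tested the same r was 0.50. With RA replicate 3 minus replicate 2 the r was 0.77 over the 46 and 0.63 over the genes tested. In the same order, r was 0.72 and 0.84 over 40 genes of the G1/S transition and DNA replication. It was 0.65 and 0.70 over 54 other mitotic genes, so the relation was not particular to the 46. For RA replicate 1 minus replicate 2 against TR replicate 2 minus replicate 1, the 46 had an r of -0.25 and a rho of -0.06. The points share their library pairs, and genes are not independent replicates, so no p is given.

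**Figure D3:**
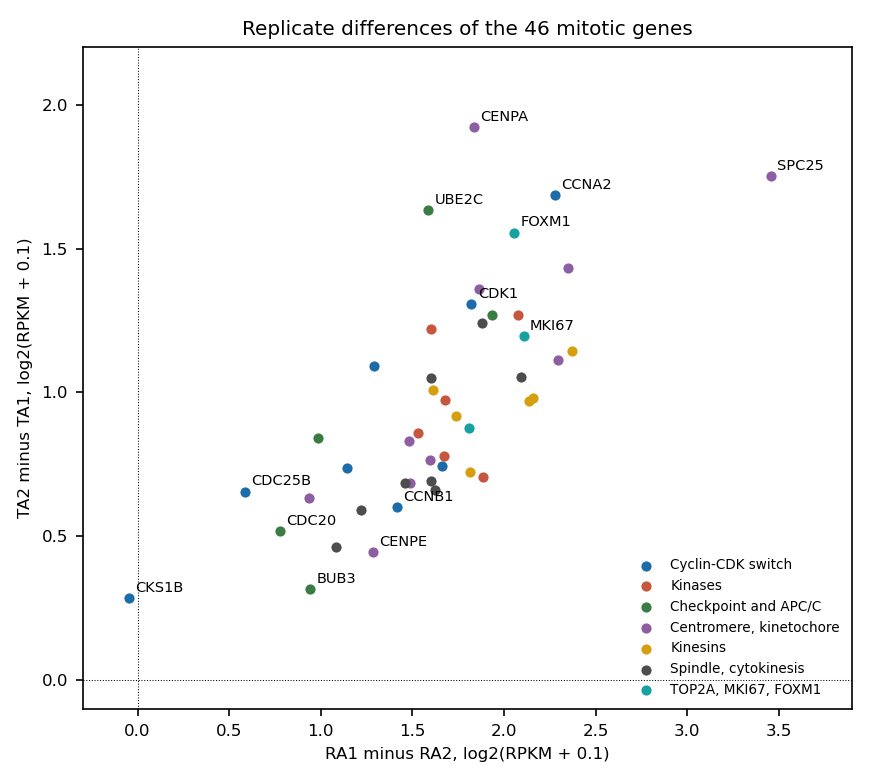
Difference between RA1 and RA2 (x) and between TA2 and TA1 (y), each in log2(RPKM + 0.1), with a point for each of the 46 mitotic genes coloured by role. SPC25, CENPA and CCNA2 lie high, and CKS1B, CDC25B, CDC20 and BUB3 lie low.

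The stability index, log2 of RA over TR, asks whether a gene has more or less mRNA than its transcription rate gives. In limma, 3 of the 46 genes were higher in RA than in TR at an adjusted p under 0.05, where 19.2% of the genes tested were, and 4 were lower, where 48.0% were. ECT2 rose with a log2 difference of 1.002 ± 0.32 (SE; adjusted p = 0.023 in limma), NUF2 with 0.96 ± 0.31 (adjusted p = 0.024 in limma) and BUB3, which encodes a spindle checkpoint protein, with 0.81 ± 0.28 (adjusted p = 0.032 in limma). ASPM fell by 1.75 ± 0.45 (adjusted p = 0.0083 in limma), CKS1B fell by 1.10 ± 0.25 (adjusted p = 0.0043 in limma), CDC25C fell by 1.25 ± 0.45 (adjusted p = 0.038 in limma) and CENPE fell by 1.001 ± 0.36 (adjusted p = 0.038 in limma). The other 39 passed in neither direction, with standard errors that reached 0.91 for SPC25. The median difference of the 46 was -0.16, against -0.58 over the genes tested.

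The values behind these calls show the groups apart. ECT2 had 14.9 and 12.3 RPKM in TR and 37.5, 17.6 and 30.3 in RA. BUB3 had 52.7 and 43.96 RPKM in TR and 118, 61.4 and 83.3 in RA. ASPM had 21.6 and 23.997 RPKM in TR and 10.9, 3.52 and 7.72 in RA. In each of these the lowest library of the higher parameter was above the highest of the lower one. Over the 46, all RA libraries lay above both TR libraries in 4 genes, against 24.3% of the genes tested, and below both in 7, against 54.9%.

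Some differences larger than those called did not pass, with larger standard errors. MAD2L1, which encodes the checkpoint protein MAD2, had 16.01 and 21.5 RPKM in TR and 86.0, 22.4 and 48.2 in RA, a log2 difference of 1.28 ± 0.56 (adjusted p = 0.073 in limma). CDK1 had 1.12 ± 0.54 (adjusted p = 0.10 in limma). At the lower end, MKI67 had -1.23 ± 0.58 (adjusted p = 0.094 in limma), KIF11, the motor that separates the spindle poles, -1.15 ± 0.56 (adjusted p = 0.10 in limma), and HJURP, the chaperone of CENPA, -1.13 ± 0.65 (adjusted p = 0.16 in limma). CCNB1, CCNB2, CCNA2, PLK1, AURKA, AURKB, CDC20, FOXM1 and TOP2A lay between -1.13 and 0.58 and did not pass.

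These counts changed when single libraries were left out. Without RA replicate 2, 11 of the 46 were higher and 2 lower, against 18.5% and 46.7% of the genes tested, while without RA replicate 1 none was higher (3 at an unadjusted p under 0.05) and 12 were lower, against 19.5% and 48.7%, all in limma. Without TR replicate 1, without TR replicate 2 and without RA replicate 3 none was higher (0, 0 and 3 at an unadjusted p under 0.05), against 15.1%, 12.9% and 16.02% of the genes tested, and 1, 1 and 2 were lower, against 40.3%, 37.9% and 44.4%. The 7 genes called with all libraries kept their sign in each of the 7 fits without 1 library. CKS1B passed in 7 of these fits, ASPM in 5 and the other 5 genes in 3 each. The difference of ECT2 ran from 0.77 to 1.31 over them and that of NUF2 from 0.77 to 1.24, and ECT2 did not pass without TR replicate 1 at 1.14. When each library was centred on its median, which moves the median of the genes tested from -0.58 to 0.09, 12 of the 46 were higher and 1 lower, against 35.4% and 33.7% of the genes tested. CKS1B then had -0.43 (adjusted p = 0.15 in limma) and did not pass, and ASPM had -1.08 (adjusted p = 0.048 in limma).

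The sign of the group's stability index followed the RA library used. Over the 6 pairs of an RA and a TR library, the median index of the 46 genes was 0.67 and 0.68 with RA replicate 1, -0.93 and -0.94 with RA replicate 2, and -0.09 and -0.02 with RA replicate 3. The number of genes above 0 went from 7 with RA replicate 2 to 37 with RA replicate 1. Over all genes with values the median stayed between -0.56 and -0.48 in the 6 pairs. On the replicate means, the median of the 46 was 0.05 and that of all genes -0.50.

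**Figure D4:**
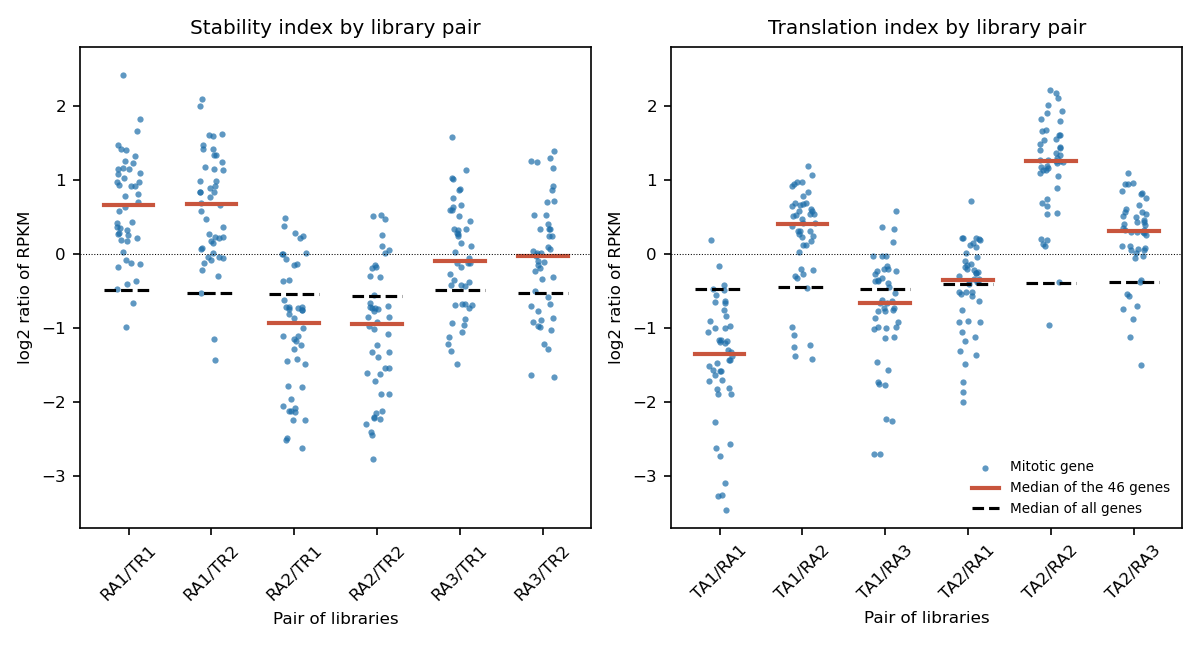
Stability index (left, log2 of RA over TR) and translation index (right, log2 of TA over RA) of the 46 mitotic genes for each pair of libraries, with red lines at their median and dashed lines at the median of all genes. The red lines run from -0.94 to 0.68 on the left and from -1.35 to 1.26 on the right, while the dashed lines hardly move.

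The translation index, log2 of TA over RA, asks whether the mRNA of a gene is over- or under-represented on polysomes. In limma, 1 of the 46 was higher in TA than in RA, where 6.66% of the genes tested were, and 2 were lower, where 29.2% were. CDC20, the mitotic activator of the APC/C, had 113, 65.9 and 87.0 RPKM in RA and 130 and 186 in TA, and rose by 0.84 ± 0.27 (SE; adjusted p = 0.042 in limma). ASPM had 1.65 and 2.73 RPKM in TA and fell by 1.61 ± 0.45 (adjusted p = 0.026 in limma). CKS1B had 12.3 and 15.01 RPKM in TA and fell by 0.995 ± 0.25 (adjusted p = 0.018 in limma). The TA libraries lay above all RA libraries in 1 of the 46, against 14.4% of the genes tested, and below them in 2, against 43.8%. The median difference was -0.04 over the 46 and -0.37 over the genes tested.

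The largest negative value did not pass. FOXM1 had 3.39 and 10.2 RPKM in TA and a log2 difference of -1.70 ± 0.61 (adjusted p = 0.063 in limma). BIRC5, which encodes survivin of the chromosomal passenger complex, had 12.6 and 32.5 RPKM in TA against 108, 29.6 and 59.9 in RA, a difference of -1.50 ± 0.55 (adjusted p = 0.066 in limma). CENPA had -1.46 ± 0.64 (adjusted p = 0.11 in limma) and CKS2 had -1.02 ± 0.44 (adjusted p = 0.10 in limma). In each of these 4 genes TA replicate 2 overlapped the RA range. Next to CDC20 at the upper end were CCNB1 at 0.58 ± 0.39, PRC1 and KIFC1, both microtubule-bundling spindle genes, at 0.56 ± 0.40 and 0.56 ± 0.56, and PLK1 at 0.54 ± 0.47, with adjusted p in limma from 0.27 to 0.47. In GENCODE, 61.9% of the exon bases of PRC1 and 86.8% of those of NUSAP1 overlap other genes on either strand. For both genes the largest overlap was with a gene on the same strand. The annotation used for counting is not known, but their reads may be split or lost in counting.

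Leaving out libraries moved these calls as well. Without RA replicate 2 none of the 46 was higher (1 at an unadjusted p under 0.05) and 9 were lower in limma, against 5.81% and 27.9% of the genes tested, among them FOXM1 at -2.26 (adjusted p = 0.010 in limma). Without RA replicate 1, 3 were higher, among them CCNB1 at 0.96 (adjusted p = 0.035 in limma), and 2 lower, against 7.20% and 29.6%. Without TA replicate 1 none passed in either direction (1 higher and 1 lower at an unadjusted p under 0.05), against 1.38% and 12.6%, and without TA replicate 2 none was higher, also at an unadjusted p under 0.05, and 5 were lower, against 3.19% and 19.95%. Without RA replicate 3, and without either TR library, none was higher (1 at an unadjusted p under 0.05) and 1 was lower, against 2.95% to 4.85% and 19.6% to 21.5% of the genes tested. With the libraries centred, which moves the median of the genes tested from -0.37 to 0.13, 2 were higher and none lower (1 lower at an unadjusted p under 0.05), against 19.0% and 9.81%. Over the 6 library pairs, the median translation index of the 46 ran from -1.35 for TA replicate 1 over RA replicate 1, with 1 gene above 0, to 1.26 for TA replicate 2 over RA replicate 2, with 44 above 0. Over all genes it stayed between -0.47 and -0.38. On the replicate means it was -0.14 for the 46 genes and -0.47 for all genes.

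Because most of the replicate difference was common to the 46 genes, each was also placed relative to the median of the 46 in the same library, on the log2(RPKM + 0.1) scale. By the SDs above, these places varied less between replicates than the levels did in RA and TA, and about as much in TR. CDK1 was at -0.56 and -0.91 in TR, at 0.63, 0.45 and 0.63 in RA and at 0.20 and 0.69 in TA. MAD2L1 was at -0.95 and -0.62 in TR, at 0.84, 0.54 and 0.70 in RA, and at 0.30 and 0.75 in TA. Both genes were thus below the middle of the group in transcription rate and above it in mRNA in every library. CCNB1 went from 0.33 and 0.43 in TR to between 0.99 and 1.35 in RA and to 1.93 and 1.71 in TA. PLK1 went from 0.15 and 0.20 in TR to between 0.45 and 0.49 in RA and to 1.01 and 1.16 in TA. CCNB1 and PLK1 therefore stood higher within the group in RA than in TR, and higher again in TA.

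Other genes stood lower in RA and TA than in TR. MKI67 was at 1.59 and 1.22 in TR, between 0.10 and 0.57 in RA, and at -0.72 and -0.35 in TA. FOXM1 was at 0.42 and 0.38 in TR, between -0.80 and -0.38 in RA, and at -2.52 and -1.78 in TA. ASPM was at -0.52 and -0.46 in TR, between -2.13 and -1.93 in RA, and at -3.52 and -3.64 in TA. For these 3 genes the libraries of TR, RA and TA did not overlap at either step. BIRC5 was at 1.36 and 1.55 in TR, between 0.94 and 1.16 in RA and at -0.65 and -0.11 in TA, and CENPA was between -1.04 and -0.71 in RA and at -2.79 and -1.69 in TA. For BIRC5 and CENPA the mean difference was -1.42 and -1.38 from RA to TA, and -0.42 and -0.28 from TR to RA. CKS2 had 0.90 from TR to RA and -0.94 from RA to TA. The relative places compare the genes only with each other and carry no test.

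**Figure D5:**
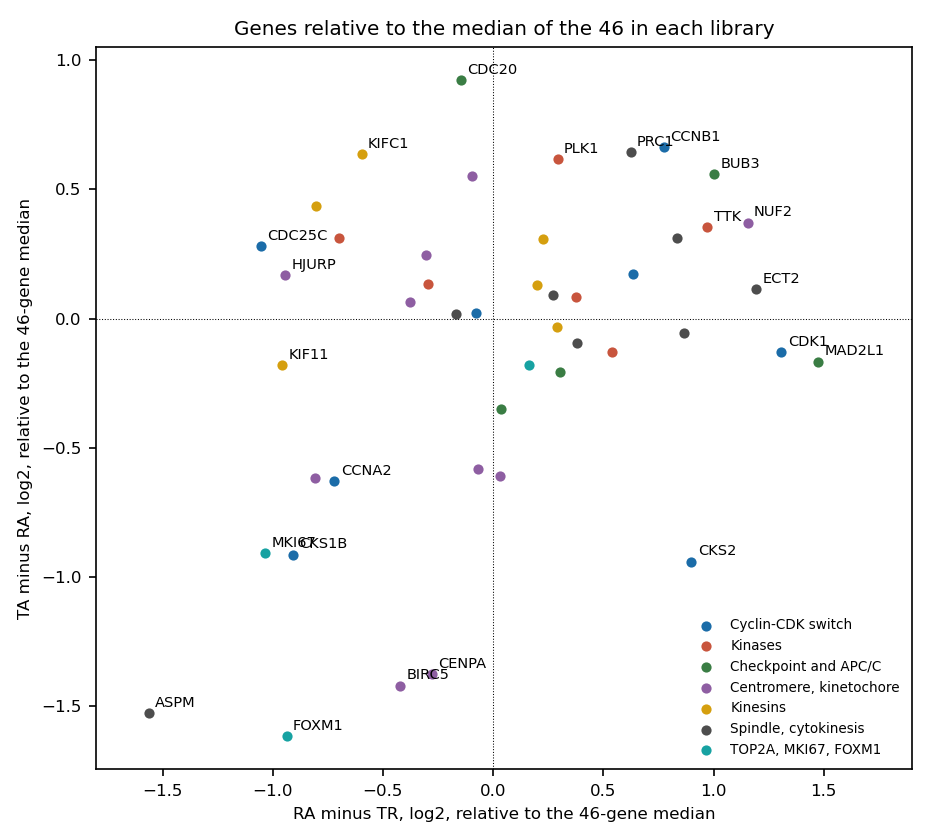
Difference between RA and TR (x) and between TA and RA (y) for each of the 46 mitotic genes, after the median of the 46 was subtracted in each library, as means over the replicates in log2 units. CDK1 and MAD2L1 lie at the right, CDC20 at the top, and ASPM, FOXM1, BIRC5 and CENPA at the bottom.

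Genes of a shared function or complex did not always lie close together. As relative RA minus TR, HJURP had -0.94 and CENPA, which it chaperones, -0.28. Of the NDC80 complex, NUF2 had 1.15 and NDC80 -0.09. SPC25 had a mean of 0.03, but its places in RA alone were -0.24, -2.06 and -1.07. The chromosomal passenger genes AURKB, BIRC5, INCENP and CDCA8 ranged from -0.70 to -0.31 from TR to RA, but from RA to TA BIRC5 stood at -1.42 and the other 3 between 0.07 and 0.31. The checkpoint genes TTK, MAD2L1 and BUB3 were at 0.97, 1.47 and 1.004 from TR to RA, above BUB1 at 0.54 and BUB1B at 0.37.

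The mRNAs of the 46 genes had a lower median share of untranslated regions (UTR) than the genes tested. In the canonical transcripts of GENCODE, on GRCh37, which is the build of the deposited table, the UTR share had a median of 29.02% over the 46, from 3.98% to 88.2%, against 49.6% over the 13096 of the genes tested that had a value. In 5 of the 46 the canonical transcript and the exon length behind the RPKM values differed by more than 1.5-fold, the widest being MAD2L1, with 5227 and 1436 bases, and BUB3, with 7703 and 2764, which also had the highest UTR shares at 88.2% and 87.2%. Over the other 41 the median UTR share was 28.7%. The median exon length was close, at 3053 and 3026 bases. No relation between UTR share and index was tested over the 46.

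Genes beside the 46 in the pathway were counted from lists of known function, to be read against the 19.2% higher and 48.0% lower of the genes tested in the stability index, and 6.66% and 29.2% in the translation index. Of 54 other mitotic genes with a row, 2 were higher in RA than in TR and 14 lower in limma, with CKAP5, a microtubule polymerase gene, highest at 0.91 (adjusted p = 0.013 in limma) and SPC24, the partner of SPC25, lowest at -2.39 (adjusted p = 0.031 in limma). In the translation index none was higher, also at an unadjusted p under 0.05, and 6 were lower, with DEPDC1 lowest at -1.60 (adjusted p = 0.026 in limma). Of 16 APC/C subunit and cofactor genes, 5 were higher and 4 lower in the stability index, with ANAPC13 highest at 1.05 and ANAPC15 lowest at -1.84, and 2 were higher and 7 lower in the translation index, with CDC23 at 0.66 and CDC26 at -1.56. Another 12 genes restrain mitotic entry, encode its phosphatases or act in the inhibition of PP2A. Of these 12, 6 were higher and 2 lower in the stability index. PPP2R1A, the scaffold of PP2A, was at 2.39 and MASTL, the Greatwall kinase that inhibits PP2A, at -1.82. In the translation index 1 was higher and 4 were lower, with PPP2R1A at 0.88 and ARPP19, a PP2A inhibitor, at -1.52. Of 15 genes of the DREAM, MYB-MuvB and NF-Y regulators, 2 were higher and 5 lower in the stability index, with TFDP1 at 1.39 and LIN37 at -1.94, and 2 were higher and 7 lower in the translation index, with NFYC at 0.77 and RBL2 at -1.45.

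The difference between the libraries reached past the 46 genes, and not evenly. The median ratio of RA replicate 1 to replicate 2 was 2.99-fold in the other mitotic genes, with 53 of 54 above 1, and 3.73-fold in 40 genes of the G1/S transition and DNA replication, with 40 of 40 above 1. It was 1.14-fold in the APC/C genes, 1.12-fold in the entry and phosphatase genes and 1.52-fold in the transcription regulators. The median ratio of TA replicate 2 to replicate 1 was 1.88-fold in the other mitotic genes, with 52 of 54 above 1. In the G1/S and replication genes it was 2.005-fold, with 40 of 40 above 1. In the APC/C, entry and phosphatase, and regulator lists it was 1.05-, 1.23- and 1.21-fold. Within the last 3 lists some genes had wider ratios: UBE2S, the chain-elongating enzyme of the APC/C, had 124, 21.0 and 82.2 RPKM in RA, PKMYT1, the MYT1 kinase, had 35.5, 6.002 and 16.03, and MYBL2 had 77.9, 15.5 and 36.9. The CDK inhibitor gene CDKN1A, with 322, 386 and 423 RPKM, and the growth arrest gene GADD45A, with 93.4, 203 and 175, had their lowest RA value in replicate 1. These 5 genes were picked after their values were seen.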

How the data were processed

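RNA of HCT116 cells was read in 7 libraries, 2 of TR, 3 of RA and 2 of TA. Reads were aligned by the authors to hg19 (TopHat, defaults) and counted on exons (HTSeq-count), and the deposited values are RPKM per gene in each library. The counting mode, strand setting and gene annotation are not given in the sources used here. Counting over exons leaves out intronic GRO-seq reads. The read totals used for scaling and the reads per gene were recovered from the RPKM values. These gave whole reads, to within 0.01 of a read, for the 18187 genes above 0. Differences were fitted with limma 3.58.1 (R 4.3.3, eBayes trend) on log2(RPKM + 0.1), all 7 libraries in 1 fit, over the 14305 genes whose mean reached 1 RPKM in TR, RA or TA, with Benjamini-Hochberg adjustment over all of them and a threshold of 0.05. A fold change on this scale understates that of low genes. The fit was also run on simulated data, with independent noise in each gene and no shift shared by the genes of a library. It therefore gives no test of calls under the shared replicate differences described here. Medians, SDs and plots were made in Python 3.11.15 with numpy 2.4.6, pandas 2.3.3 and matplotlib 3.10.9. Positions came from GENCODE release 44 lifted to GRCh37, and promoters from RefSeq on GRCh38.p14. The 46 genes, the other lists and the tests were chosen with earlier results of these data known. Genes given in detail were 11 fixed genes, the 5 highest and 5 lowest in each index, and those called or at the ends of a range. Alternatives were other pseudocounts and filters, centring, no trend, the replicate block and each library left out. A gene of the regulator list is not reported here.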

Additional observations from a re-analysis of the deposited data

How the results depend on the processing

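Counts of the 46 genes past an adjusted p of 0.05 in limma are given here as higher and lower, 3 and 4 in the stability index and 1 and 2 in the translation index. They stayed within 1.5 times under pseudocounts of 0.01 and 1, at least 1 RPKM in each parameter and no trend, and moved elsewhere. Centring gave 12 and 1, and 2 and 0 (1 lower at an unadjusted p under 0.05). Without the filter the translation index gave 0 higher (1 unadjusted). Leaving out each library in turn, the stability counts ran from 0 to 11 higher and from 1 to 12 lower, and the translation counts from 0 to 3 higher and from 0 to 9 lower. The cause was not tested, except that fewer libraries were fitted. Over the 14305 genes, 2743 and 6870 passed in the stability index and 953 and 4173 in the translation index. Centring gave 5066 higher and 4814 lower, and 2713 and 1404, at least 1 RPKM in each parameter gave 3656 lower in the stability index, and the block 109 and 1387 in the translation index. There, 422 were higher without RA replicate 3, 198 higher and 1803 lower without TA replicate 1, and 456 higher without TA replicate 2. The medians on replicate means moved by less than the SD of the 6 library pairs, 0.72 and 0.92, but changed sign, from 0.05 to -0.16 as a geometric mean in the stability index. The pairs reuse the same libraries, and their SD holds the differences between these libraries. Staying within it therefore does not show that the medians were steady. Without a library the stability median ran from -0.39 to 0.33, and the translation median from -0.76 to 0.33. The replicate differences kept their direction under the alternatives run. The paper describes log-phase cells divided between the assays. The labels number the replicates, but no source ties equal numbers to the same divided culture. Over the genes tested, RA replicate 1 minus 2 and TA replicate 1 minus 2 had r = -0.50, so the numbers were not taken as pairs. With the replicate block, 0 and 2 genes passed in the stability index (0 and 2 unadjusted) and 0 and 0 in the translation index (0 and 2 unadjusted). A crossed pairing of TA and RA replicates 1 and 2, chosen after seeing the data, gave 4 and 5, and 1 and 3.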

Other observations

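The 40 genes of the G1/S transition and DNA replication were higher in RA replicate 1 than in replicate 2 in 40 of 40, and higher than in replicate 3 in 40 of 40. The median ratio of RA replicate 1 to replicate 3 was 2.03-fold for these genes, with 21 of 40 at 2-fold or more, against 1.62-fold and 3 of 46 for the mitotic genes. RRM2, the small subunit of ribonucleotide reductase, had 195, 18.8 and 69.2 RPKM in RA, 19.6 and 89.8 in TA, and 96.5 and 83.1 in TR. CCNE2, which encodes cyclin E2, had 16.9, 1.12 and 3.94 RPKM in RA and a 15.1-fold ratio of RA replicate 1 to 2. In limma, 2 of the 40 were higher and 8 lower in the stability index, against 19.2% and 48.0% of the genes tested, with RRM1 highest at 1.22 (adjusted p = 0.039 in limma) and CCNE2 lowest at -2.89 (adjusted p = 0.026 in limma). In the translation index, where 6.66% of the genes tested were higher and 29.2% lower, none was higher, also at an unadjusted p under 0.05, and 1 was lower, CCNE1, which encodes cyclin E1, at -0.86 (adjusted p = 0.021 in limma). Both the G1/S genes and the mitotic genes were high in RA replicate 1 and low in RA replicate 2, whereas the 5 epithelial marker genes had a median ratio of RA replicate 1 to 2 of 0.80-fold, with none above 1.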
